A study of Mus musculus with 7 samples.

Results

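Cfap126 (Flattop), a ciliary protein gene that marks mature β-cells and has been proposed as a readout of planar cell polarity, was examined together with 9 genes of the planar cell polarity pathway in islets that had lost Wnt4 in β-cells. The other genes were Vangl1, Vangl2, Celsr1, Celsr2, Celsr3, Prickle1, Prickle2, Scrib and Daam1. They were chosen by name, with earlier results of these data known. Every array probe whose RefSeq accession mapped to one of these symbols was kept. This gave 10 of the 22911 genes that could be named on the array and 20 of its 56605 probes. The islets came from 7 mice taken at 7 weeks of age, which the methods describe as males, and RNA of each was hybridised to 1 single-colour oligonucleotide array. The 4 Wnt4βKO mice carried Pdx1CreER, a tamoxifen-inducible Cre recombinase under the Pdx1 promoter, and floxed Wnt4 on both alleles. The 3 controls were littermates with the same floxed alleles and no Cre, although a label field calls them WT. All 7 mice received tamoxifen by gavage at 4 to 5 weeks of age. Because the controls carried no Cre, an effect of CreER itself cannot be told apart from the loss of Wnt4 on these arrays. In some of its other experiments the paper saw no phenotype in Pdx1CreER mice heterozygous for floxed Wnt4, but such mice were not among these 7. The study began with 4 controls and left out 1 that failed its quality tests, and the remaining arrays keep the numbers control 2 to 4 and Wnt4βKO 1 to 4. Whole islets were used, in which Pdx1 is active mainly in β-cells but which also hold the other endocrine cells, vessels and whatever exocrine tissue was carried over.

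Planar cell polarity is the alignment of cells within the plane of a tissue, across the axis from apical to basal. Its core is built from transmembrane proteins (Celsr, Vangl and Frizzled) and cytoplasmic partners (Prickle, Dishevelled) that sort to opposite sides of each cell and hold each other in place across the junction. Non-canonical Wnt ligands feed into it, and its output runs through formins such as Daam1, small GTPases and Jun kinase to actin, and through basal body proteins to cilia. In the islet, Cfap126 has been used to separate mature from proliferative β-cells, and the question addressed here was whether these transcripts differ when β-cells lose the Wnt ligand Wnt4.

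Between 45.5% and 49.0% of the spots were well above background on each array, no spot was saturated, and Pearson's r between arrays over the tested probes was 0.962 to 0.984. With 7 arrays, every value is only as precise as that number allows. Values are log2 signals after background correction and quantile normalization, differences are Wnt4βKO minus control, and probes were tested where they were well above background on at least 3 arrays. The Wnt4 probe read 11.56, 11.17 and 11.77 in the controls and 11.30, 10.80, 11.04 and 10.92 in the Wnt4βKO islets. Its mean was lower by 0.49 (SE 0.17), or 71.3% of control, with an unadjusted limma p of 0.0232, an adjusted p of 0.651 and overlapping groups. Whether the probe lies within the deleted exons is not known here. The samples also differed in exocrine RNA. The mean log2 signal of 26 acinar genes was 13.52, 13.46 and 13.46 in the controls and 12.28, 13.29, 13.18 and 12.57 in the Wnt4βKO islets, and that of 12 duct genes was 7.86 to 7.91 against 7.63 to 7.85. The acinar genes were not uniform, with differences from -2.06 (Cuzd1) to 0.14 (Ctrb1), 22 of them lower and 4 higher. At an unadjusted limma p under 0.05, 9 of 26 were lower, against 8.94% of all genes in either direction, and 0 passed adjustment. In whole islets a smaller number of cells of one type and less RNA per cell cannot be told apart.

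Cfap126 was read by a pair of probes that carry the same transcript accession, and both were well above background on all 7 arrays. RefSeq lists 3 start regions for the gene on mouse chromosome 1. The 250 bases before the first start, at chr1:171113736-171113985 on the plus strand of GRCm38.p6, are shown for orientation because Cfap126 gave the largest difference among the members. The capitals mark the only CCAAT box, a common promoter element, found on either strand in this window. It begins 137 bases before the start.
Cfap126 upstream region: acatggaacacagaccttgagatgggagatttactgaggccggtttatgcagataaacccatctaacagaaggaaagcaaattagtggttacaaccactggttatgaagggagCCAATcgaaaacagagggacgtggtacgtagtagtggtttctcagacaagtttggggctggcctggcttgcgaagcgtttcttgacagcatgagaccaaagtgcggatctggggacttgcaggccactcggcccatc
The same letters occur in 33.9% of 32851 start regions and in 4 of the 14 regions available for 7 of the members, so the match is not particular to Cfap126. Those regions are longer than the bases shown and run past the start, so the shares are not for the same window. The arrays do not report which start was used.

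The probe A_51_P430259 of Cfap126 read 9.64, 9.73 and 9.75 in the controls and 10.72, 10.27, 10.24 and 10.73 in the Wnt4βKO islets. All 4 Wnt4βKO arrays lay above all 3 controls, and arrays 1 and 4 were the highest. The mean was 9.70 ± 0.06 (SD, n = 3) in controls and 10.49 ± 0.27 (SD, n = 4) in Wnt4βKO islets, a difference of 0.79 (SE 0.14, 95% interval 0.45 to 1.13), or 1.72-fold (1.36 to 2.18). The unadjusted limma p was 0.000833, which ranked 50th of 26153 tested probes, and the adjusted p was 0.435, so the difference did not pass the test across the array. Within the slide's rows the difference was 0.75 in row 1 and 0.80 in row 2. Row 1 held Wnt4βKO 1 and 2 with control 4 as its only control, so differences in that row rest on a single control array.

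The probe A_55_P2186668 of Cfap126 read 12.00, 11.90 and 11.71 in the controls and 12.79, 11.66, 12.18 and 12.23 in the Wnt4βKO islets. Here the groups overlapped, because Wnt4βKO 2 was the lowest of the 7 arrays and Wnt4βKO 1 the highest. The means were 11.87 ± 0.15 (SD, n = 3) and 12.21 ± 0.46 (SD, n = 4), with a difference of 0.35 (SE 0.24, 95% interval -0.21 to 0.90), an unadjusted limma p of 0.188 and an adjusted p of 0.844. Leaving out Wnt4βKO 1 moved this difference to 0.15 and leaving out Wnt4βKO 2 moved it to 0.53. Both probes were thus higher on average in Wnt4βKO islets, but only 1 of them separated the groups, and the difference between the pair was not tested.

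For both probes the Cfap126 signal was highest on Wnt4βKO 1 and 4, the arrays with the lowest acinar means. Those means, 12.28 and 12.57, were lower than on the other arrays but still bright. With the acinar mean as a covariate in the limma fit, the difference of A_51_P430259 was 0.44 (unadjusted p 0.0064, adjusted p 1) and that of A_55_P2186668 was -0.18 (unadjusted p 0.427). The acinar mean is lower on every Wnt4βKO array than on every control, so group and acinar content cannot be fully told apart in this fit.

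**Figure D1:**
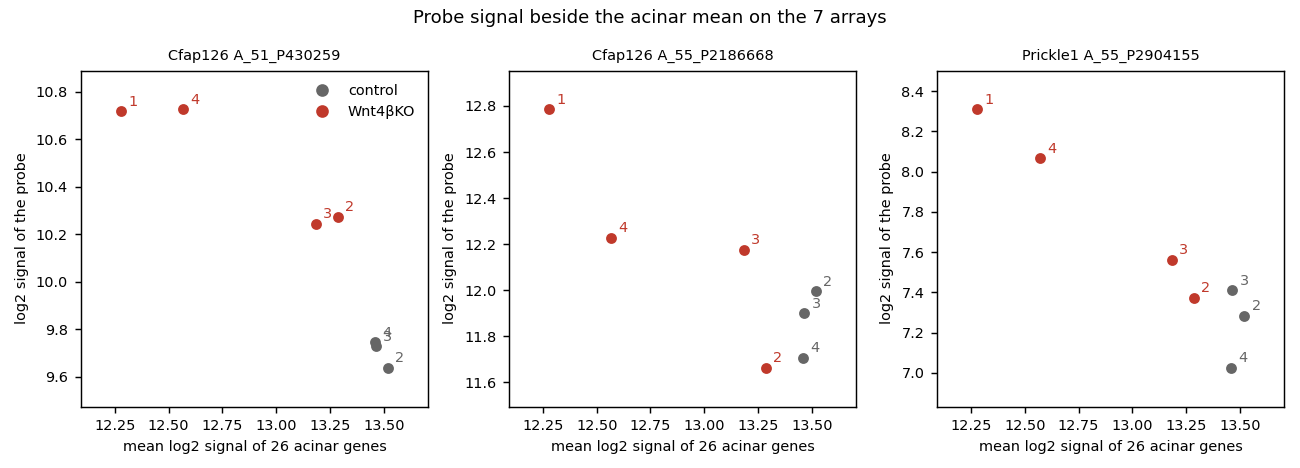
Log2 signal of both Cfap126 probes and of 1 Prickle1 probe (vertical axes) against the mean log2 signal of 26 acinar genes (horizontal axes), 1 point per array with its replicate number, grey for control and red for Wnt4βKO. Wnt4βKO 1 and 4 have the lowest acinar means, 12.28 and 12.57, and the highest signal in all 3 panels.

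Genes whose pattern over the 7 arrays was most like that of Cfap126 were found by Pearson's r among 13638 named genes, as a description over arrays that share group and acinar differences. For A_55_P2186668 they were Nanos3 (r = 0.98), Elp6, Shc2, Erc1 and Gm8232, and 129 genes had r over 0.9, with Vangl2 at 0.91. For A_51_P430259 they were Mxra7 (r = 0.99), Actn3, Fam234a and Dennd2c, and 143 genes had r over 0.9, with Wnt5b, a non-canonical Wnt ligand, at 0.94. With the opposite Cfap126 probe, Vangl2 was at 0.59 and Wnt5b at 0.72. The other tested members, by their brightest probe, ranged from -0.68 (Celsr1) to 0.91 (Vangl2) with A_55_P2186668. With A_51_P430259 they ranged from -0.71 (Daam1) to 0.77 (Vangl1).

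The Vangl proteins are multi-pass membrane proteins of the core complex. The Vangl1 probe A_52_P449417 read 6.49, 7.14 and 7.11 in the controls and 7.59, 7.24, 7.15 and 7.31 in the Wnt4βKO islets. Control 2 was the lowest, and the Wnt4βKO arrays were all above the controls, although Wnt4βKO 3 (7.15) and control 3 (7.14) were nearly equal. The difference was 0.41 (SE 0.18, 95% interval -0.02 to 0.83), with an unadjusted limma p of 0.0577 and an adjusted p of 0.735, and it was 0.20 without control 2 (unadjusted p 0.188) and 0.16 with the acinar mean as a covariate (unadjusted p 0.524). The other Vangl1 probe did not rise well above background on any of the arrays.

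Vangl2 was read by 1 probe, with 7.54, 7.27 and 7.41 in the controls and 7.92, 7.34, 7.51 and 7.52 in the Wnt4βKO islets. Apart from Wnt4βKO 1, the Wnt4βKO values fell inside the range of the controls. Its difference was 0.17 (SE 0.14, 95% interval -0.17 to 0.50; unadjusted limma p 0.284).

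The Celsr genes encode multi-pass cadherins that link the complex across neighbouring cells. The Celsr1 probe read 7.38, 7.96 and 8.79 in the controls and 7.17, 7.67, 7.35 and 7.54 in the Wnt4βKO islets. The controls spread widely, with a SD of 0.71 against 0.22, and control 2 lay within the Wnt4βKO range. The difference was -0.61 (SE 0.31, 95% interval -1.33 to 0.12), with an unadjusted limma p of 0.0877 and an adjusted p of 0.762. It was -0.23 without control 4 and -0.95 without control 2, where the unadjusted p was 0.00886 and the adjusted p 0.624. In slide row 1, where control 4 was the only control, it was -1.37, and in row 2 it was -0.22. The 2 tested Celsr2 probes differed by 0.02 (95% interval -0.15 to 0.18) and 0.00 (95% interval -0.16 to 0.16). Both were dim, with scanned intensities of 31 to 45, against 21 to 24 for the untested Celsr2 probe. With the offset of the background correction set to 0, the SE of each was 0.20, against 0.07 in the main fit. The narrow intervals therefore do not show that Celsr2 was unchanged. The Celsr3 probe A_55_P2179587 read 10.12, 9.84 and 9.92 in the controls and 9.72, 9.83, 10.05 and 10.33 in the Wnt4βKO islets. These groups lay on top of each other, with a difference of 0.02 (95% interval -0.34 to 0.38). The other tested Celsr3 probe, well above background on 5 of 7 arrays, differed by -0.03.

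Prickle proteins are cytoplasmic partners of Vangl. Prickle1 was read by 3 probes, whose differences were 0.06, 0.59 and 0.01. The middle one, A_55_P2904155, read 7.28, 7.41 and 7.02 in the controls and 8.31, 7.37, 7.56 and 8.07 in the Wnt4βKO islets. Its groups overlapped through Wnt4βKO 2, which was below control 3, and Wnt4βKO 1 and 4 were the highest. The difference was 0.59 (SE 0.23, 95% interval 0.04 to 1.14), or 150% of control, with an unadjusted limma p of 0.0382 and an adjusted p of 0.689. The unadjusted call was lost without control 2, control 4 or Wnt4βKO 4, with p of 0.0725, 0.120 and 0.0872. The difference was 0.42 (unadjusted p 0.0710) without Wnt4βKO 1 and 0.01 (unadjusted p 0.935) with the acinar mean as a covariate. The Prickle1 probe A_55_P1954758 read 8.63, 8.46 and 8.01 in the controls and 8.46, 8.27, 8.60 and 8.39 in the Wnt4βKO islets, so its groups overlapped fully. Neither Prickle2 probe was well above background on any of the arrays, with scanned intensities of 18 to 22.5, and Prickle2 was therefore not tested.

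Scrib, a scaffold of basolateral polarity that binds Vangl, read 9.51, 9.59 and 9.54 in the controls and 9.71, 9.64, 9.37 and 9.40 in the Wnt4βKO islets. The Wnt4βKO values lay on both sides of the controls, with a difference of -0.02 (SE 0.10, 95% interval -0.26 to 0.22). Daam1, a formin that couples Dishevelled to actin, was read by a pair of probes. The probe A_55_P2742595 read 8.13, 8.19 and 7.94 in the controls and 7.79, 7.98, 7.50 and 7.63 in the Wnt4βKO islets. Wnt4βKO 2 was above control 4 and the other Wnt4βKO arrays were below all controls. The difference was -0.36 (SE 0.13, 95% interval -0.66 to -0.06), or 77.9% of control, with an unadjusted limma p of 0.0252 and an adjusted p of 0.661. It was -0.05 in slide row 1, where control 4 was the only control, and -0.60 in row 2. The unadjusted call was lost with the acinar mean as a covariate (-0.34, p 0.137) and when control 2, control 3, Wnt4βKO 3 or Wnt4βKO 4 was left out, where the unadjusted p was 0.0704, 0.0840, 0.0576 and 0.0605. The other Daam1 probe, A_51_P302192, differed by 0.00 (95% interval -0.21 to 0.20). It was dim, with scanned intensities of 46 to 68. Its SE was 0.21 with the offset of the background correction set to 0, against 0.09 in the main fit.

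**Figure D2:**
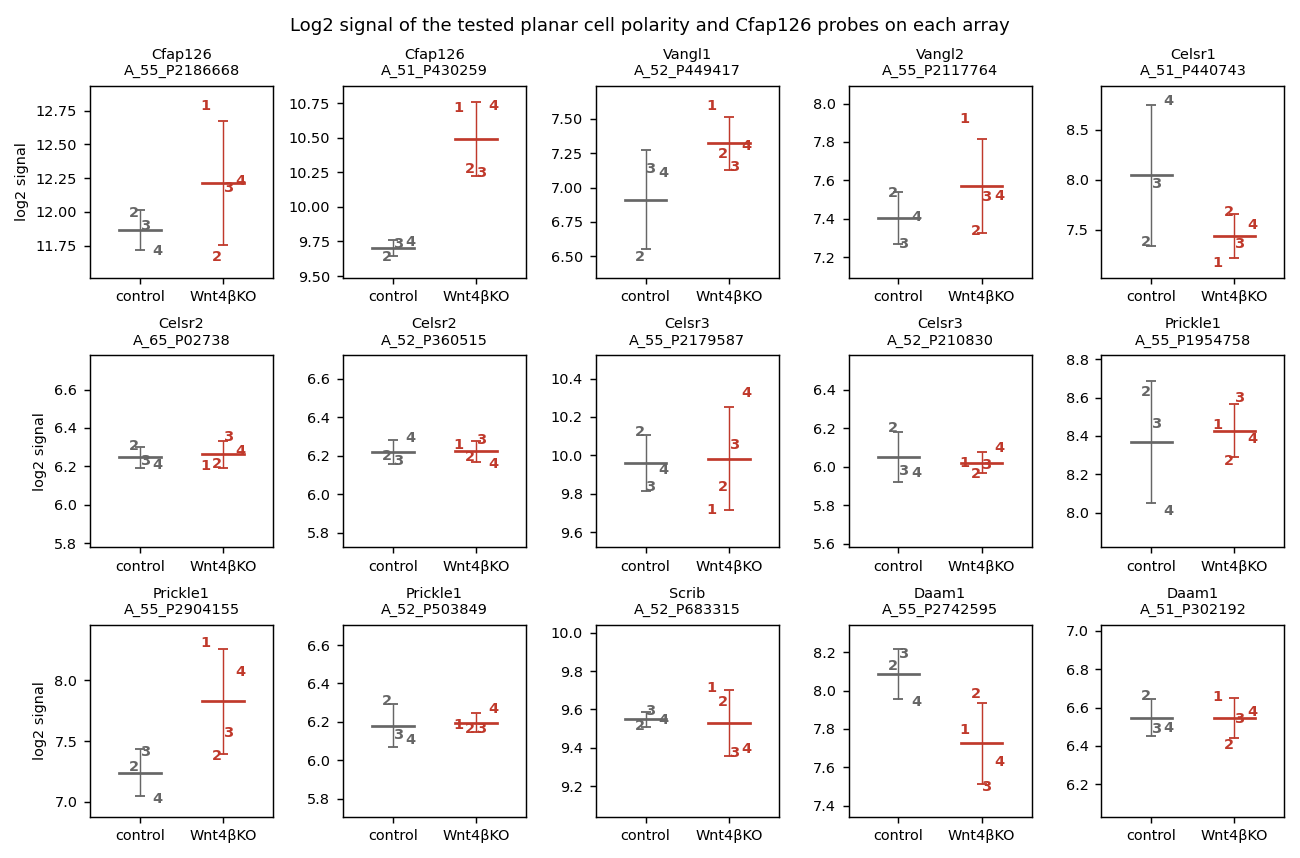
Log2 signal of the 15 tested probes on each array, 1 panel per probe with its own vertical range, numbers giving the replicate of each control (grey) and Wnt4βKO (red) array, horizontal lines the group means and bars the SD. The 4 Wnt4βKO arrays lie above the 3 controls for Cfap126 A_51_P430259 and Vangl1, and the groups overlap in the other panels.

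Of the 20 probes, 15 were tested, for 9 of the 10 genes, and the other 5 did not reach well above background on a single array. None of the 15 passed the adjusted threshold of 0.05 in limma, with adjusted p from 0.435 to 0.999, where 4 of 26153 probes (0.0153%) did. At an unadjusted p under 0.05 there were 3 probes, 2 higher (Cfap126 and Prickle1) and 1 lower (Daam1), against 6.97% of all tested probes. The groups did not overlap for 2 probes (Cfap126 and Vangl1), against 7.24% of all tested probes. Taking each gene by its brightest probe, 1 of 9 (Daam1) passed the unadjusted threshold, against 8.94% of 13668 genes. Of the 15 differences, 8 lay within 0.1 of 0, and the 95% interval covered 0 for 12 of 15. Among the 8, both Celsr2 probes, Celsr3 A_52_P210830, Prickle1 A_52_P503849 and Daam1 A_51_P302192 were dim, with scanned intensities of 23 to 68. With the background correction offset at 0, their SE was 0.20 to 0.27, against 0.07 to 0.09 in the main fit. Their small differences therefore do not show unchanged transcripts. Scrib, Celsr3 A_55_P2179587 and Prickle1 A_55_P1954758 were brighter, at 214.5 to 1143. Their SE was 0.19 to 0.23, against 0.10 to 0.16. The median difference was 0.02 over the 15 probes and 0.00 over all tested probes.

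**Figure D3:**
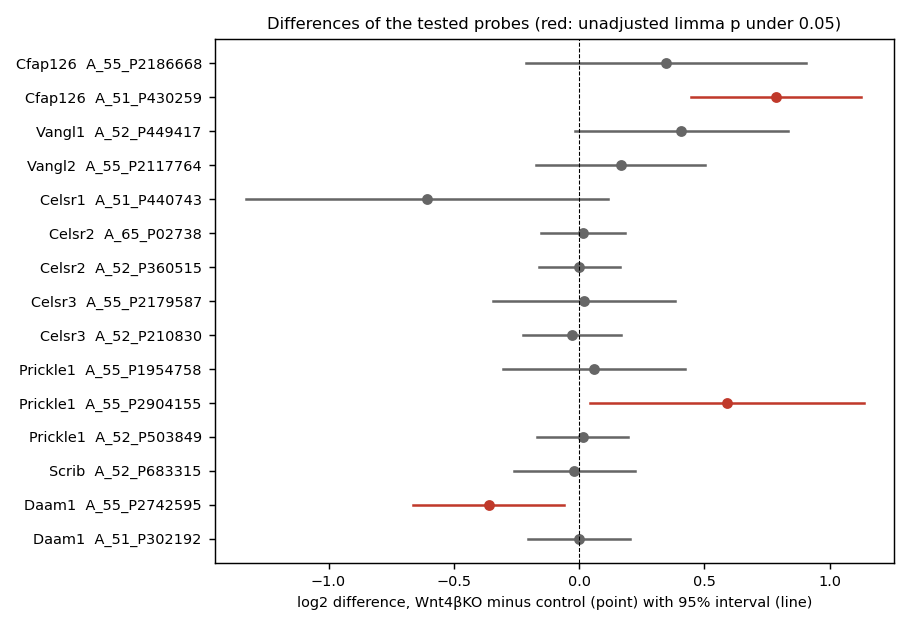
Log2 difference of Wnt4βKO minus control (point) and its 95% interval from limma (line) for each of the 15 tested probes, red where the unadjusted p was under 0.05. The intervals of Cfap126 A_51_P430259, Prickle1 A_55_P2904155 and Daam1 A_55_P2742595 exclude 0, and the other 12 cover it.

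Further genes of the pathway were taken from 6 lists, each gene by its brightest probe, which left 79 of 102 genes tested. No gene passed the adjusted threshold, 2 of 79 were lower at an unadjusted p under 0.05 and 0 were higher, against 8.94% of all genes past that threshold in either direction, and the median difference was -0.03, against 0.01 over all genes. Of the core partners (Frizzled, Dishevelled, Ror, Ryk, Ptk7 and others) 14 of 16 were tested and 0 passed the unadjusted threshold, with a median of 0.03. Of the Fat and Dachsous cadherins 4 of 7 were tested and 0 passed, with a median of -0.05. Of the ciliary effectors 11 of 12 were tested and 1 was lower, Ift20, a carrier of cargo into the cilium, by -0.47 (SE 0.20, unadjusted limma p 0.0464, adjusted p 0.708), and the median was -0.06. All 18 cytoskeletal effectors, among them Rhoa, Rac1, Cdc42, Rock1 and Jun kinases, were tested and 0 passed, with a median of 0.00.

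Of the apicobasal partners of Scrib 17 of 19 were tested and 0 passed the unadjusted threshold. Their median was -0.07, against 0.01 over all genes. Of 30 motile cilia genes 15 were tested and 1 was lower, Dnaic2, a dynein arm chain, by -0.21 (SE 0.09, unadjusted limma p 0.0486, adjusted p 0.713), with a median of -0.02. Foxj1, the master regulator of motile cilia, did not reach well above background on a single array, while both Cfap126 probes were on all 7. Among Wnt ligands, which act upstream, Wnt5b was higher by 0.37 (SE 0.11, unadjusted limma p 0.0102, adjusted p 0.595) at 1 probe, where all 4 Wnt4βKO arrays lay above the controls, and by 0.04 at its other probe. Probes of Wnt5a, Wnt11, Wnt9a and Wnt9b were not well above background.

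**Figure D4:**
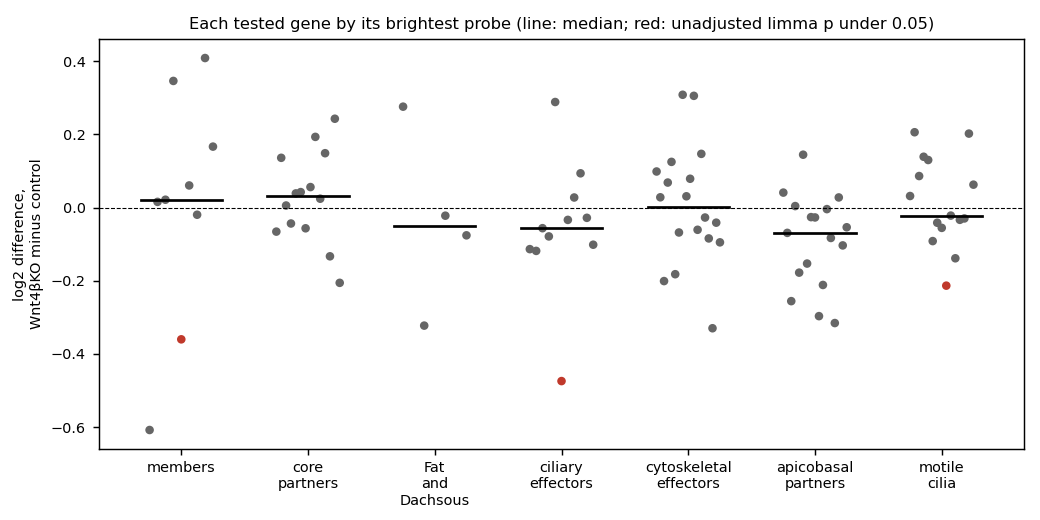
Log2 difference of Wnt4βKO minus control (vertical axis) for each tested gene by its brightest probe, in the members and in 6 lists of pathway genes, with the list median as a line and unadjusted limma p under 0.05 in red. The red points are Daam1, Ift20 and Dnaic2, and the list medians lie between -0.07 and 0.03.

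Since Cfap126 marks mature β-cells, 18 further maturity genes were read beside it. At an unadjusted p under 0.05 limma gave 1 higher (Ins1, by 0.29, adjusted p 0.632) and 4 lower, 5 of 18 against 8.94% of all genes. These were Slc2a2 (the glucose transporter GLUT2, by -1.54, adjusted p 0.00878), Ero1b (-0.86, adjusted p 0.629), Glp1r (-0.47, adjusted p 0.670) and Trpm5 (-0.33, adjusted p 0.710), so only Slc2a2 of the 18 passed adjustment. Ins1 and Ins2 were among the brightest probes, where quantile normalization sets values by rank. Ins2 read the same 15.82 in controls 3 and 4 and in Wnt4βKO 1, 2 and 4. The Ins1 difference is thus a change of rank at the top of the arrays and not a measured rise in Ins1 RNA. Ucn3, another marker of β-cell maturity, differed by 0.07 and the transcription factor Mafa by 0.11, neither past the threshold.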

How the data were processed

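Islet RNA of 7 mice (3 control, 4 Wnt4βKO) was measured on 1 single-colour array each. The authors deposited 1 scanner output per array with spot intensity on a linear scale, not normalized between arrays. The labels name Agilent Feature Extraction 9.1 and the file headers 12.0.1.1. Following the study's methods, normexp (offset 50) and quantile normalization were applied in limma 3.58.1 (R 4.3.3), here to the median spot and background intensity, in place of the mean that had been planned. Control spots were dropped, outlier spots set to missing (65 values) and spots of a probe averaged. A probe was tested if at least 3 arrays read it well above background (26153 of 56605) with lmFit and eBayes, two-sided, with Benjamini-Hochberg adjustment over all of them. Names came from matching accessions to RefSeq genes of GRCm38.p6 (58.3% of probes matched), while the headers name mm9 for the array design. A table of log2 values was also deposited, but none of its 7 columns resembled a scanner array. Pearson's r of deviations from the probe means was -0.08 to 0.09 with the own array and at most 0.12 with any array. The own array was the best match for 2 columns, at such low r. The table was not used.

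Each of the 7 arrays is from a different animal by its label. Same-numbered arrays were checked for shared deviations and were not treated as pairs. The text names all 10 members with every probe, Wnt4, at most 5 genes of each pathway list past unadjusted p 0.05, and the 5 genes most like each Cfap126 probe, of which 1 is not reported here. Other names are given as list members, and Cfap69, Cfap70 and Bbs4 were chosen after their values were seen. The members and lists were chosen with earlier results of these data known. The fit was tested on simulated data. The alternatives were no background correction, offset 0, the processed intensity at its 75th percentile, median scaling or cyclic loess between arrays, no filter or one on all 7 arrays, array weights, a robust and trended variance model, a replicate block, slide row, the acinar mean as a covariate, the mean over a gene's probes, and each array left out. A fit of the 6 arrays of the block without it was added after the data were seen. All 7 arrays shared 1 slide and 1 scan, so neither could be a block. Python 3.11.15 with scipy 1.17.1 and matplotlib 3.10.9 was used for summaries and plots.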

Additional observations from a re-analysis of the deposited data

How the results depend on the processing

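No member probe passed the adjusted threshold under any of 20 alternatives, and none of the tested results turned to the other direction past a threshold. At unadjusted p under 0.05 the 3 member probes became 1 with median scaling, 1 with the acinar covariate and 1 to 4 with an array left out. The 2 pathway genes became 5 with no filter, 4 with the trended and robust model, 1 with the all-array filter, array weights, 6 arrays without the block, slide row or the acinar covariate, and 1 to 4 with an array left out, and 0 passed adjustment throughout. Cfap126 A_51_P430259 had an unadjusted p under 0.05 in all 20, with a difference of 0.70 to 0.87 with an array left out and 0.44 to 0.92 otherwise. Cfap126 A_55_P2186668 ranged from 0.15 to 0.53 with an array left out, and without Wnt4βKO 2 its unadjusted p was 0.0252. Vangl1 was past the unadjusted threshold in 4 alternatives (0.57 with no background correction, 0.76 with the processed signal, 0.51 without control 3 and 0.50 without control 4), Prickle1 A_55_P2904155 in 9 of 20, and Daam1 A_55_P2742595 in 11 of 20. Wnt4 was past it in 13 of 20. It missed with offset 0 (-0.50), the processed signal (-0.52), median scaling (-0.45) and without control 2, control 4, Wnt4βKO 2 or Wnt4βKO 4 (unadjusted p 0.0664, 0.0857, 0.0577 and 0.0543), and ranged from -0.66 to -0.35 with an array left out. List medians moved to -0.19 (Fat and Dachsous) and -0.12 (apicobasal) with offset 0, and to -0.15 (apicobasal), 0.093 (core partners) and 0.092 (motile cilia) with the processed signal. The core partner median was -0.048 with the mean over a gene's probes, and the motile cilia median ranged from -0.048 to 0.052 with an array left out.

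Same-numbered arrays gave correlations of deviations of -0.13, 0.23 and -0.01 for numbers 2, 3 and 4, against -0.31 to 0.16 for arrays of different numbers. With so few pairs this check cannot exclude pairing. With a replicate block on 6 arrays the differences were 0.70 for Cfap126 A_51_P430259 (unadjusted p 0.0033), 0.15 for Cfap126 A_55_P2186668 and 0.42 for Prickle1 A_55_P2904155 (unadjusted p 0.118). Control 1 was not analysed here. The small number of arrays and the dim probes limit what could be detected.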

Other observations

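Of the 79 tested pathway genes, each by its brightest probe, 3 had groups that did not overlap. The share over all tested probes, not limited to the brightest of a gene, was 7.24%. These 3 genes did not pass the unadjusted threshold and are named here after their values were seen. Cfap69 read 6.85, 6.70 and 6.79 in the controls and 6.92, 6.86, 6.89 and 7.01 in the Wnt4βKO islets, a difference of 0.14 (unadjusted limma p 0.0976). Cfap70 read 5.90, 5.90 and 5.99 in the controls and 6.08, 6.05, 6.03 and 6.08 in the Wnt4βKO islets, a difference of 0.13 (unadjusted limma p 0.0801), and was well above background on 5 of 7 arrays. Bbs4, a component of the BBSome that traffics ciliary membrane proteins, lay below the controls on all 4 Wnt4βKO arrays, with a difference of -0.12 (unadjusted limma p 0.129). None passed the adjusted threshold.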
